A study of Mus musculus with 8 samples.

Results

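The set described here holds 10 genes for RNA-binding proteins that regulate splicing or messenger RNA in neurons, *Rbfox1*, *Rbfox2*, *Rbfox3*, *Celf2*, *Celf4*, *Nova1*, *Nova2*, *Elavl2*, *Elavl4* and *Ptbp2*. They were taken by name from a list, with each gene represented by its annotated transcript of lowest Ensembl number, and they make up 10 of 38031 genes with counts. All 10 passed the filter on low counts and were tested. RNA was extracted from the primary motor cortex (M1) of male Swiss Webster mice at P49-P53, after a lentivirus had been injected at P21-P25. In 4 mice the virus carried *Fezf2 shRNA*, against the transcription factor gene *Fezf2*, and in the 4 control mice it carried *non-silencing shRNA*. Both vectors held the mCherry reporter and the shRNA behind a rat *Synapsin I* promoter, which is active in neurons, and the tissue was cut out by its mCherry signal, so that untransduced cells, glia and all cortical layers were included. Each library came from 1 animal. In such bulk tissue, fewer cells that express a gene and less RNA of it per cell cannot be told apart.

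RBFOX, NOVA, PTBP, CELF and ELAVL proteins bind short motifs in RNA. Many of their sites lie in introns, where binding near an alternative exon promotes or blocks its inclusion, and others lie in 3′ ends, where binding changes stability or translation. RBFOX3 is the antigen known as NeuN, widely used as a mark of mature neurons, the ELAVL2 and ELAVL4 proteins (HuB and HuD) appear as cells become neurons, and PTBP2 takes over from PTBP1 in developing neurons. Several of these genes are very long and are themselves alternatively spliced.

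Counts were made over genomic intervals and so include introns. In 333 of 334 pairs of member transcripts in which one interval lay inside the other, the outer count was at no point below the inner one in any of the 8 libraries. The single exception was *Rbfox1*. Libraries held 54684016 to 58003814 counts over the genes used. Normalized counts are scaled to the mean effective library size, log2 fold changes are *Fezf2 shRNA* over *non-silencing shRNA*, and a gene was called when its edgeR adjusted p was at most 0.05 and its log2 fold change at least 0.2 in size. The targeted gene *Fezf2* had 688, 767, 735 and 702 normalized counts in control replicates 1 to 4 and 621, 583, 568 and 592 in *Fezf2 shRNA* replicates 1 to 4. Every knockdown library lay below every control library, and the log2 fold change was -0.29 (SE 0.0760, edgeR adjusted p = 0.0765, exact permutation test, p = 0.0286). Corrected for the trend of each library with gene length it was -0.18 (edgeR adjusted p = 0.433). With 4 against 4 libraries no p below 0.0286 is possible in this test, which is two-sided throughout.

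With edgeR 0 of the 10 genes were called, where 2.19% of the 9959 genes tested were, 2.06% as higher with *Fezf2 shRNA*. With the replicate number as a block 0 of the 10 were called as well, where 0.894% of genes were. At an unadjusted p under 0.05, 4 of the 10 were higher with *Fezf2 shRNA* (*Rbfox1*, *Rbfox2*, *Rbfox3* and *Elavl2*), against 11.8% of all genes, and 0 were lower. DESeq2 called 3 of them, with and without its prior, *Rbfox1*, *Rbfox3* and *Elavl2*, where it called 7.37% of genes with the prior and 7.55% without it. The same 3 genes were higher in every *Fezf2 shRNA* library than in any control library, as were 7.41% of all genes tested. Log2 fold changes were above 0 for 9 of the 10, with a median of 0.14, and above 0 for 43.4% of all genes, with a median of -0.03.

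**Figure D1:**
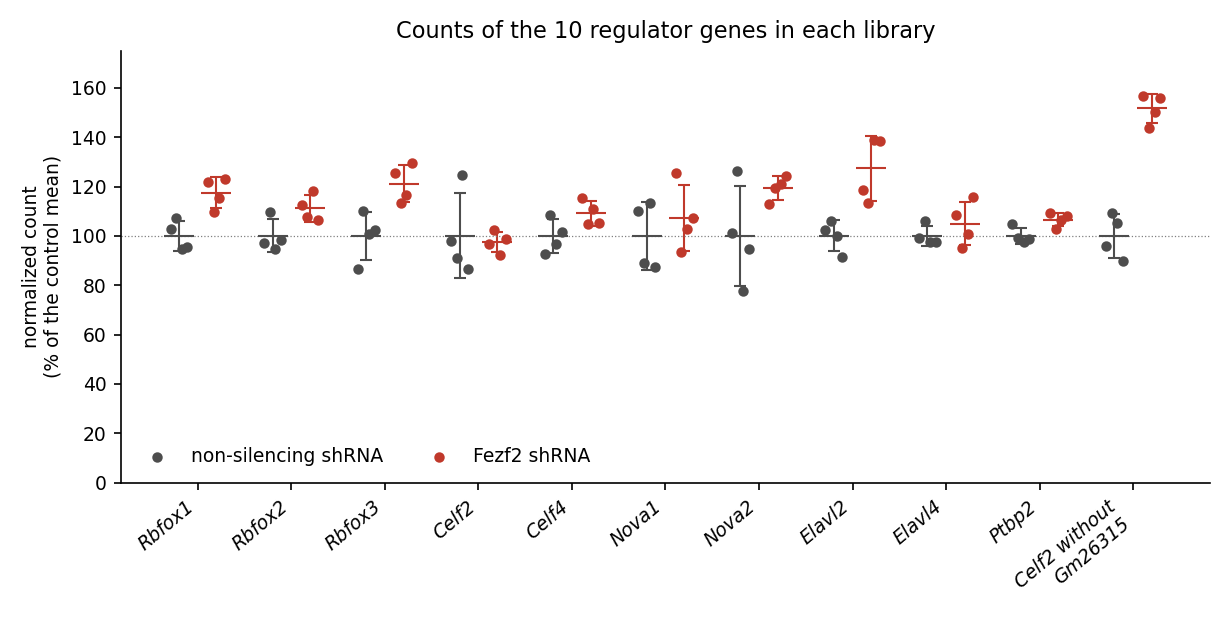
Normalized count of each gene in each library, as a percentage of the mean of the 4 control libraries (y axis, linear from 0), for *non-silencing shRNA* (grey) and *Fezf2 shRNA* (red); each point is 1 library, and bars are the mean and SD of 4. The groups are separate for *Rbfox1*, *Rbfox3* and *Elavl2* and overlap for the other 7 genes, and *Celf2* is shown again at the right without the reads of the nested gene *Gm26315*, where the groups are separate.

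The largest count in the set, that of *Celf2*, consisted mostly of reads on another gene that lies inside it. *Gm26315*, a 321-nt gene of type misc_RNA, lies inside a *Celf2* intron on the same strand (GRCm38, chr2:7076094-7076414) and resembles the small nuclear RNA *Rn7sk* (chr9:78175303-78175633), the 7SK RNA that holds the elongation factor P-TEFb inactive. The reference sequences of both are shown from nt 150 on, which takes in the last 90 nt of their longest identical run and all that follows it. Capitals mark bases that differ or face a gap in a global alignment.
Gm26315: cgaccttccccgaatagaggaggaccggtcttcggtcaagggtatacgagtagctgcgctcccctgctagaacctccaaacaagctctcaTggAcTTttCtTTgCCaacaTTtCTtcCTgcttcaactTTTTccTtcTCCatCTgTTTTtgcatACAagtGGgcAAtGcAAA
Rn7sk: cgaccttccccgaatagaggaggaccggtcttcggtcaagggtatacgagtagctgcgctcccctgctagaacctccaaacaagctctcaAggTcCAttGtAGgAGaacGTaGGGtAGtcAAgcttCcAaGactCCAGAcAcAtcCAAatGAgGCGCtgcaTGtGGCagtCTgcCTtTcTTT
They were identical over an unbroken run of 235 nt, from nt 5 to nt 239 of *Gm26315*, and over 278 of 331 aligned positions in all. *Gm26315* had 37.5 to 44.1 reads for every 100 reads on *Rn7sk* in the 8 libraries. The treatment of reads with several possible positions is not given in the sources used here, so the share of these reads that came from *Rn7sk* was not determined.

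Reads on *Gm26315* made up 71.5% to 85.3% of the count of *Celf2*, the gene for a CELF protein that acts in splicing and in cytoplasmic RNA control. With them, *Celf2* had 324542, 301930.5, 414305 and 286998 normalized counts in control replicates 1 to 4 and 321667, 339499.9, 305839.9 and 327514 in *Fezf2 shRNA* replicates 1 to 4. The knockdown libraries lay inside the range of the controls, whose highest value, in replicate 3, stood well above the other 3. The log2 fold change was -0.04 (SE 0.122, edgeR adjusted p = 0.887, exact permutation test, p = 0.943), and it was 0.10 without control replicate 3. *Gm26315* itself had 268869, 238645, 353438 and 235051 in the controls and 230799, 256125, 218816 and 237217 with *Fezf2 shRNA*. Its highest value was in the same control library, and its log2 fold change was -0.22 (SE 0.133, edgeR adjusted p = 0.374, exact permutation test, p = 0.171).

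With the reads of *Gm26315* taken out, *Celf2* had 55673, 63286, 60867 and 51947 normalized counts in the controls and 90868, 83375, 87024 and 90297 with *Fezf2 shRNA*. All 4 knockdown libraries then lay above all 4 controls, and the means were 87891 ± 3455 against 57943 ± 5105 (SD, n = 4 each). When the counts of small RNA genes were subtracted from every gene that contains them, a step chosen after the data were seen, the log2 fold change of *Celf2* was 0.60 (SE 0.0780, edgeR adjusted p = 0.0124; exact permutation test, p = 0.0286). It was then the only one of the 10 genes that was called, where 2.25% of 9977 genes were, and its p ranked 8 from the smallest. Leaving out 1 library at a time gave 0.56 to 0.65, and the call was lost without control replicate 1 (0.58, edgeR adjusted p = 0.0823). It was also lost once each library had been corrected for its trend with gene length, which left 0.24 (edgeR adjusted p = 0.202).

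**Figure D2:**
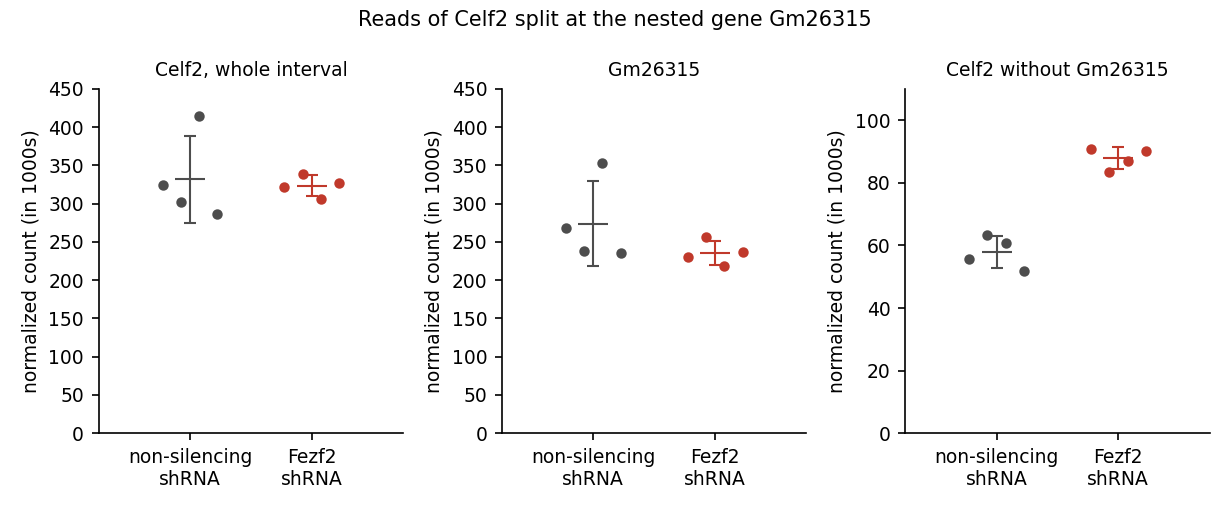
Normalized counts, in units of 1000, of the whole *Celf2* interval (left), of *Gm26315* (middle) and of *Celf2* without *Gm26315* (right) in each library, with the mean and SD of 4 libraries per group; the y axes start at 0 and the right panel has its own scale. The groups overlap in the left and middle panels, where control replicate 3 is highest, and are separate in the right panel.

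The counted transcripts of *Celf2* start at several places, which divides the interval into 3 parts. By annotation the 3′ part ended at 6884996 and the middle part began at 6884948, so these 2 can share reads in that short stretch. The 3′ part of 345 kb had 82.1 ± 3.26 normalized counts per kb in the controls and 109 ± 8.11 with *Fezf2 shRNA* (SD, n = 4 each). The middle part of 196 kb, without *Gm26315*, had 50.1 ± 9.05 and 84.0 ± 5.74 per kb. The 5′ part of 315 kb had 62.8 ± 7.71 and 107 ± 2.30 per kb. All 3 parts were higher in every *Fezf2 shRNA* library than in any control library. Among all genes tested, as counted, 7.41% were higher in this way and 2.06% were called as higher. The 3 parts are cut from 1 gene that was itself separate without *Gm26315*, so they are not independent results. Their log2 fold changes were 0.41 (SE 0.0695) for the 3′ part, 0.74 (SE 0.117) for the middle and 0.77 (SE 0.0845) for the 5′ part, with edgeR adjusted p = 0.026, 0.0241 and 0.0067, and the difference between parts was not tested. The wholly exonic last 6.63 kb of the gene had 4552, 4689, 3589 and 4133 normalized counts in the controls and 4656, 4175, 4729 and 4682 with *Fezf2 shRNA*. Here the groups overlapped, with a log2 fold change of 0.11 (SE 0.0919, edgeR adjusted p = 0.689). Over all 11 exonic parts of *Celf2* the log2 fold changes ran from 0.07 to 0.23, and 0 were called.

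RefSeq places *Celf2* starts at or near the upstream ends of the 5′ and middle parts and inside the 3′ part, and 3 of them are printed as the 250 bases upstream of the start, from the RefSeq table for GRCm38.p6, minus strand, read 5′ to 3′, with CG in capitals. They stand for a far 5′ start, the start beside *Gm26315* and a start inside the 3′ part.
Celf2, chr2:7396001-7396250: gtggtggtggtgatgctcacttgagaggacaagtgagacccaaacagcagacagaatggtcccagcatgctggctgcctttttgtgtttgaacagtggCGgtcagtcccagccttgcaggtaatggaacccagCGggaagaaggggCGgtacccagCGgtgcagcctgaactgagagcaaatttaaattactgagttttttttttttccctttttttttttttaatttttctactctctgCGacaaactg
Celf2, chr2:7081303-7081552: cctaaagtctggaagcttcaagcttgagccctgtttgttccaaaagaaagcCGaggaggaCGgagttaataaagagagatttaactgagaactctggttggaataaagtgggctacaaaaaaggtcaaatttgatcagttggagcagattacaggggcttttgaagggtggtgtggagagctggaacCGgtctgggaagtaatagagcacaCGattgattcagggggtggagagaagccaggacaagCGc
Celf2, chr2:6872036-6872285: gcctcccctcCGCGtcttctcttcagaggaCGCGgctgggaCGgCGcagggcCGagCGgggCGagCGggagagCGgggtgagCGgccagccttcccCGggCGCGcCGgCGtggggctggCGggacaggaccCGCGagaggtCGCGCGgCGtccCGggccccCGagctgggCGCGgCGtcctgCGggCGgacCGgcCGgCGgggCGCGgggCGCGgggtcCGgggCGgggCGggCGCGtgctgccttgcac
The 2 upstream windows held 5 CG each, and 55.6% of 32851 RefSeq windows of this length held at least as many. The third held 43, a number reached by 0.712% of windows. Another window inside the 3′ part, chr2:6721663-6721912, is not printed and held 7 CG, a number reached by 46.3% of windows. For 8 of the 10 genes RefSeq windows were at hand, 21 in all, with 2 to 43 CG and a median of 10, where the median of all windows was 6. CG reads the same on both strands, so each window was counted once.

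The 3 RBFOX genes code for splicing regulators that bind GCATG. *Rbfox1* (chromosome 16, 6349138 to 7411526 on the plus strand) had 21287, 22254, 19660.05 and 19793 normalized counts in control replicates 1 to 4 and 25309.9, 22721, 23912 and 25519.7 in *Fezf2 shRNA* replicates 1 to 4. The groups did not overlap, although *Fezf2 shRNA* replicate 2 lay close to control replicate 2. This gave a log2 fold change of 0.23 (SE 0.0663, edgeR adjusted p = 0.098, exact permutation test, p = 0.0286), and it ranged from 0.21 to 0.27 when 1 library was left out. Its other counted transcript, which lies inside this interval in the annotation used here, had more reads than the outer one in every library. At least 1 of both counted intervals therefore differs from the annotated one, so no level per kb is given for *Rbfox1*, and its intronic part below is intronic only by annotation. The second transcript (annotated from 6809222 to 7409813) had 32927, 38522, 33304 and 29723 normalized counts in the controls and 45627, 40746, 44394 and 48547 with *Fezf2 shRNA*, again without overlap. Among all transcript intervals its log2 fold change was 0.42 (edgeR adjusted p = 0.0376), a call, where 2.2% of 51505 intervals were called.

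*Rbfox2* (chromosome 15, 77083802 to 77306605 on the minus strand), which is also expressed outside neurons, had 12414, 14016, 12096 and 12552 normalized counts in the controls and 14349, 13731, 15112 and 13583 with *Fezf2 shRNA*. The groups overlapped, since control replicate 2 exceeded 2 of the knockdown libraries. In the edgeR fit its log2 fold change was 0.15 (SE 0.0653, edgeR adjusted p = 0.232, exact permutation test, p = 0.0857). The antisense gene *1700109K24Rik* lies inside *Rbfox2* and held 8.11% to 10.6% of its reads, which cannot be told apart by strand here. The counts of *Rbfox2* divided into a 3′ interval of 73.3 kb and the upstream 153 kb, of which 0.515% is exonic. *Rbfox2* transcripts with different annotated ends had identical counts, so this division and exonic share hold only by annotation. In the 3′ interval, where *1700109K24Rik* lies by annotation, the log2 fold change was 0.05 (SE 0.0656, edgeR adjusted p = 0.714). This upstream part had 2211, 3063, 2531 and 2580.3 normalized counts in the controls and 3452, 3476, 4091 and 3579 with *Fezf2 shRNA*. It was higher in each knockdown library than in any control, and its log2 fold change was 0.49 (SE 0.101, edgeR adjusted p = 0.00975 over all intronic parts, exact permutation test, p = 0.0286).

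*Rbfox3* (chromosome 11, 118491155 to 118909572 on the minus strand) had 7072, 8989.9, 8219 and 8344 normalized counts in the controls and 10229, 9243, 9512 and 10552 with *Fezf2 shRNA*. The groups were separate, with control replicate 1 the lowest of all and control replicate 2 just below the lowest knockdown library. The fitted log2 fold change was 0.28 (SE 0.0791, edgeR adjusted p = 0.0976, exact permutation test, p = 0.0286). Without control replicate 2 it was called (0.33, edgeR adjusted p = 0.0477). A 77.4-kb intronic interval of *Rbfox3* gave 0.34 (SE 0.106, edgeR adjusted p = 0.035 over all intronic parts, of which 27.0% were called). Among all transcript intervals, 0 of the 10 of *Rbfox3* were called (lowest edgeR adjusted p = 0.0834). The exonic last 2.23 kb gave 0.03 (SE 0.10, edgeR adjusted p = 0.925 over all exonic parts). The intronic call held in 3 of the 8 fits with 1 library left out, with adjusted p-values of 0.0156 to 0.0941.

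*Celf4* (chromosome 18, 25478468 to 25753750 on the minus strand), a neuronal CELF gene whose product binds the 3′ untranslated parts of many synaptic messengers, had 12885, 15067, 13446 and 14127 normalized counts in the controls and 16005, 14561, 15415 and 14619 with *Fezf2 shRNA*. Control replicate 2 lay inside the range of the knockdown libraries. As a log2 fold change this was 0.13 (SE 0.0653, edgeR adjusted p = 0.301, exact permutation test, p = 0.0857).

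NOVA1 and NOVA2 bind clusters of YCAY and regulate splicing of synaptic transcripts. *Nova1* (chromosome 12, 46694517 to 46818929 on the minus strand) had 3624, 2926, 3726 and 2877 normalized counts in the controls and 4120.4, 3072, 3375 and 3528 with *Fezf2 shRNA*. Control replicates 1 and 3 were above 3 of the 4 knockdown libraries, and control replicates 2 and 4 were below all of them. The log2 fold change was 0.10 (SE 0.111, edgeR adjusted p = 0.639, exact permutation test, p = 0.514), with a range of 0.02 to 0.17 over the fits with 1 library left out. *Nova2* (chromosome 7, 18925888 to 18965319 on the plus strand) had 1888, 2359, 1449 and 1767 normalized counts in the controls and 2105, 2231, 2259 and 2317 with *Fezf2 shRNA*. The spread of the controls was larger than that of the knockdown libraries, with means of 2228 ± 89.4 against 1866 ± 377 (SD, n = 4 each). Control replicate 2 was above every knockdown library and the other 3 controls were below them all. This gave a log2 fold change of 0.26 (SE 0.122, edgeR adjusted p = 0.271, exact permutation test, p = 0.143), and *Nova2* was called once control replicate 2 was left out (0.39, edgeR adjusted p = 0.0473). Reads on the long noncoding gene *Gm26821*, on the opposite strand at the end of *Nova2*, made up 13.7% to 18.1% of the *Nova2* count. Which of both genes these reads came from cannot be told by strand here.

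The neuronal ELAVL proteins bind U-rich and AU-rich stretches and stabilize messengers as well as regulating splicing. *Elavl2* (chromosome 4, 91250763 to 91372054 on the minus strand) had the largest log2 fold change of the 10 genes as counted. Its normalized counts were 3472, 3592, 3389 and 3091 in the controls and 4011, 3842, 4699.5 and 4694 with *Fezf2 shRNA*. The groups were separate, and *Fezf2 shRNA* replicates 3 and 4 were the highest. In the edgeR fit its log2 fold change was 0.35 (SE 0.0820, edgeR adjusted p = 0.057, exact permutation test, p = 0.0286), just outside the threshold, and it was called without control replicate 2 (0.38, edgeR adjusted p = 0.0456) or without *Fezf2 shRNA* replicate 2 (0.40, edgeR adjusted p = 0.0369). An intronic interval of 92.6 kb, 0.658% exonic, had 1978, 1997, 1869.7 and 1639.8 normalized counts in the controls and 2302, 2248, 2672 and 2850.05 with *Fezf2 shRNA*. It did not overlap between groups, and its log2 fold change was 0.43 (SE 0.0984, edgeR adjusted p = 0.0137 over all intronic parts). The exonic last 2.48 kb had 509, 618, 424 and 501 in the controls and 511, 506, 573 and 541 with *Fezf2 shRNA*, with overlap and a log2 fold change of 0.06 (SE 0.116, edgeR adjusted p = 0.882).

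*Elavl4* (chromosome 4, 110203737 to 110286889 on the minus strand) had 4744, 5077, 4673 and 4681 normalized counts in the controls and 5192, 4564, 4833 and 5539.7 with *Fezf2 shRNA*. The groups overlapped, with *Fezf2 shRNA* replicate 2 the lowest of all 8. The fitted log2 fold change was 0.07 (SE 0.0693, edgeR adjusted p = 0.591, exact permutation test, p = 0.4). Within the gene, a 3′ interval of 16.8 kb gave -0.01 (SE 0.0774) and an intronic interval of 48.6 kb gave 0.26 (SE 0.125), neither of them called. *Ptbp2* (chromosome 3, 119718742 to 119783388 on the minus strand), the neuronal PTB gene, had 4143, 3919, 3858 and 3917 normalized counts in the controls and 4319, 4070.2, 4208 and 4286 with *Fezf2 shRNA*. Control replicate 1 lay above the lowest knockdown library. As a log2 fold change this was 0.09 (SE 0.0529, edgeR adjusted p = 0.342, exact permutation test, p = 0.0571), and its range over the fits with 1 library left out was 0.08 to 0.11.

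Mostly intronic and mostly exonic parts could be compared for several of these genes, because their counted transcripts start or end at different places. Parts that were at most 5% exonic were termed intronic, and parts that were at least 80% exonic were termed exonic. This division was made after the data were seen, and parts of 1 gene overlap and share reads. By this rule the whole counted intervals of *Rbfox1*, *Rbfox2*, *Rbfox3*, *Celf2* and *Celf4*, exons included, were also intronic parts. The whole *Rbfox1* interval was called among intronic parts (0.23, edgeR adjusted p = 0.0404) but not among genes (edgeR adjusted p = 0.098). Of the 61 intronic parts of 7 members, 30 were called, all higher with *Fezf2 shRNA*, from 5 genes (*Celf2*, *Elavl2*, *Rbfox1*, *Rbfox2* and *Rbfox3*), where 27.0% of 14370 intronic parts of all genes were called. Only 49 of the 61 had at most 10% of their reads on other genes inside them, and these held all 30 calls. The parts above that limit were all of *Celf2*, for which 13 of 25 were within it. The 27.0% was not limited in this way. The calls of the intronic parts described above for *Rbfox1*, *Rbfox2* and *Elavl2* held in 8 of 8 fits with 1 library left out. Of the 18 exonic parts, from *Celf2*, *Elavl2* and *Rbfox3*, 0 were called, where 0.0768% of 3905 exonic parts of all genes were called and 9.6% had an unadjusted p under 0.05. The median log2 fold change of all parts was 0.20 for intronic and -0.09 for exonic ones. Of the 71 transcript intervals of the 10 genes, 23 were called, where 2.2% of 51505 intervals of all genes were. All 23 called intervals were among the 61 that were within the same limit. They were 16 of *Celf2*, 6 of *Elavl2* and 1 of *Rbfox1*, and the 23 fell to 1 without control replicate 1.

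**Figure D3:**
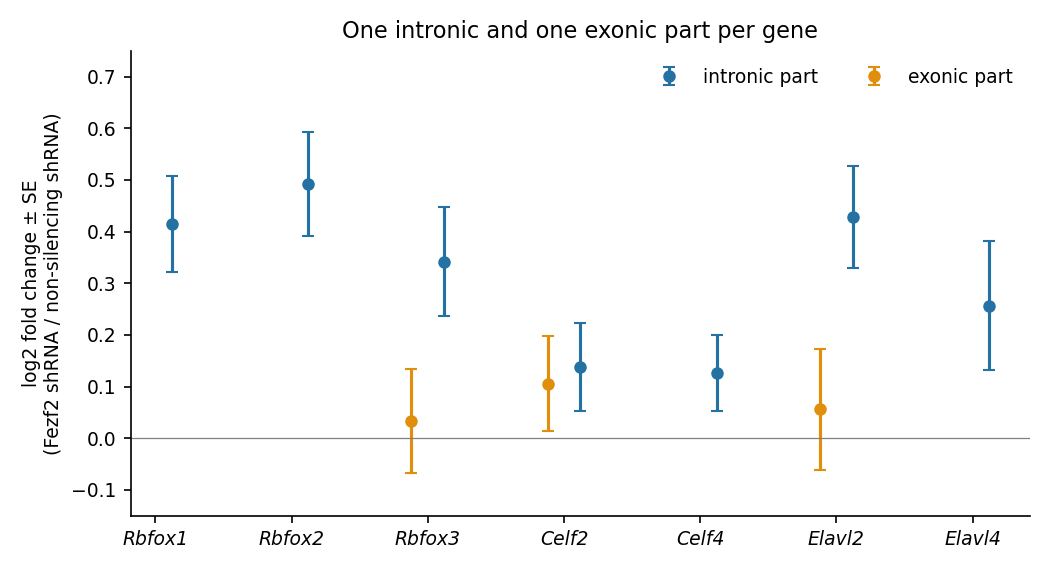
Log2 fold change with its SE (y axis) of 1 intronic part (blue) and, where there was one, 1 exonic part (orange) of each of 7 genes. Intronic parts were considered with at least 1000 reads on average and at most 10% of reads on other genes inside them. Of these, the one with the lowest exonic share is shown, and the exonic part is the one with the most reads. The 3 exonic points lie between 0.03 and 0.11 and the intronic points between 0.13 and 0.49. The intronic part shown for *Celf2* is a far upstream one (0.14), outside most of the counted interval. The one shown for *Celf4* (0.13) is its whole counted interval, exons included, of which 2.67% is exonic.

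Log2 fold changes followed the genomic span of a gene over the whole data set. The median was -0.12 for 2153 genes under 10 kb and 0.29 for 407 genes of 300 kb or more. The members are long, with a median span of 174 kb, where that of all genes tested was 28.5 kb. Among genes of 30 to 100 kb the quartiles of log2 fold changes were -0.06 and 0.10, and *Elavl4* and *Ptbp2* lay between them and *Nova2* above. Among genes of 100 to 300 kb they were 0.0485 and 0.25, and *Celf4*, *Nova1* and *Rbfox2* lay between them and *Elavl2* above. Of the 407 genes of 300 kb or more, 24.6% were called, and the quartiles were 0.19 and 0.39. *Rbfox1* and *Rbfox3* lay between those, and *Celf2* lay below them as counted and above them without *Gm26315*. With the trend removed, the log2 fold changes were -0.15 for *Rbfox1*, -0.05 for *Rbfox2*, -0.0016 for *Rbfox3*, -0.10 for *Celf4*, -0.03 for *Nova1* and -0.0058 for *Elavl4*, were above 0 for *Nova2* (0.25), *Elavl2* (0.23) and *Ptbp2* (0.04), and lowest for *Celf2* as counted (-0.38, edgeR adjusted p = 0.276). In that fit 0 of the 10 were called, where 0.0201% of genes were. The span of *Rbfox1* entered this fit as annotated, with the doubt given above.

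**Figure D4:**
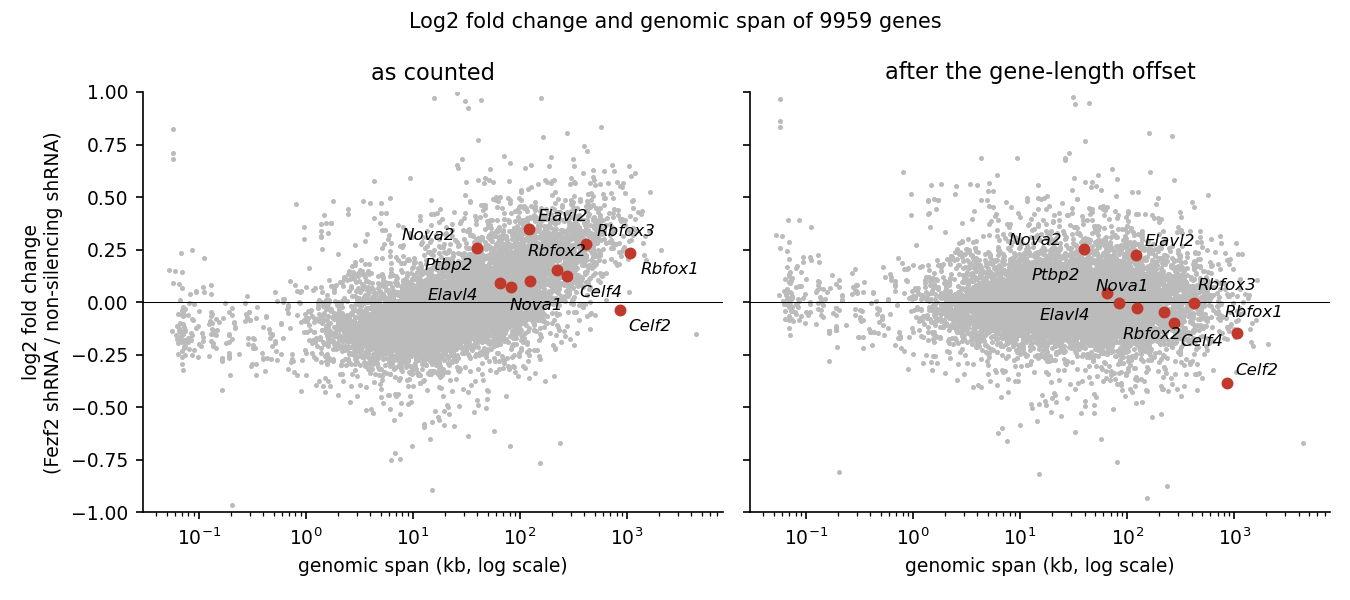
Log2 fold change of 9959 genes (grey, 1 point per gene) against genomic span in kb on a log axis, with the 10 members in red, as counted (left) and after the per-library trend with span was removed (right); 18 and 19 genes lie outside the y axis of -1 to 1. The members follow the rising cloud at the left, except *Celf2*, and scatter around 0 at the right, with *Nova2* and *Elavl2* highest and *Celf2* lowest.

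Levels between genes were compared only per kb of counted interval, which is mostly intron. In the controls they were 67.7 ± 5.96 normalized counts per kb for *Celf2* without *Gm26315*, 61.2 ± 1.94 for *Ptbp2*, 57.6 ± 2.30 for *Elavl4*, 57.3 ± 3.83 for *Rbfox2*, 50.4 ± 3.41 for *Celf4* and 47.3 ± 9.57 for *Nova2* (SD, n = 4 each). The lower group was *Elavl2* with 27.9 ± 1.76, *Nova1* with 26.4 ± 3.61 and *Rbfox3* with 19.5 ± 1.91 per kb. Neighbours in this order differed by less than the sum of their SDs from *Celf2* through *Nova2* and between *Elavl2* and *Nova1*, so their ranks are not resolved. The gaps between *Nova2* and *Elavl2* and between *Nova1* and *Rbfox3* exceeded it. For *Rbfox2* and *Celf4*, transcripts with different annotated ends had identical counts, so their true intervals may differ from the annotated ones.

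Other members of the same families were tested beside them. Of 8 such genes 0 were called, and log2 fold changes ran from -0.26 to 0.09 with a median of 0.03. *Ptbp1*, the PTB gene of non-neuronal cells, had the smallest p, with 619.7, 617, 561 and 756 normalized counts in the controls and 511, 578, 521 and 516 with *Fezf2 shRNA*. Only 1 knockdown value reached into the range of the controls, and the log2 fold change was -0.26 (SE 0.104, edgeR adjusted p = 0.204, exact permutation test, p = 0.0571). *Celf1*, a broadly expressed CELF gene, gave 0.07 (SE 0.0508) and *Ptbp3* 0.07 (SE 0.0772), with edgeR adjusted p = 0.477 and 0.621.

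Of 25 other splicing and RNA-binding regulators that were tested, out of 27 with counts, 0 were called with edgeR and 9 with DESeq2, all of them higher with *Fezf2 shRNA*. Log2 fold changes were above 0 for 22 of the 25, with a median of 0.11, and 10 were higher and 1 lower at an unadjusted p under 0.05. Among all genes, 11.8% were higher at that p, and DESeq2 with its prior called 7.37%. The median regulator here spans 83.4 kb, and the median tested gene 28.5 kb. Once the length trend was removed, the regulators had a median log2 fold change of 0.04, and 0 were called. Without that removal, the smallest edgeR p of these regulators belonged to *Rbms1*, a gene for a single-stranded nucleic acid binding protein. *Rbms1* had 1975, 1513, 1754 and 1639.8 normalized counts in the controls and 2120.3, 2102, 2623 and 2706 with *Fezf2 shRNA*. The groups were separate, and the log2 fold change was 0.47 (SE 0.108, edgeR adjusted p = 0.0519). *Raver2*, whose product binds PTB proteins, had 1691 ± 80.5 normalized counts in the controls and 2042 ± 122 with *Fezf2 shRNA* (SD, n = 4 each), and its log2 fold change was 0.27 (SE 0.0662, edgeR adjusted p = 0.0601). *Cpeb4*, for a protein that binds cytoplasmic polyadenylation elements, had a log2 fold change of 0.22 (SE 0.0617, edgeR adjusted p = 0.0908).

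Of 11 genes known as targets of these proteins, 0 were called and log2 fold changes were above 0 for 6 and below 0 for 5, with a median of 0.01. *Gphn*, for the inhibitory synapse scaffold gephyrin, had 6235, 6410.3, 5972 and 5681 normalized counts in the controls and 30612, 6365, 40678 and 6751 with *Fezf2 shRNA*. Replicates 1 and 3 of the knockdown stood several times above the other 6 libraries, which lay close together. The log2 fold change was 1.80 (SE 0.522, edgeR adjusted p = 0.101, exact permutation test, p = 0.0571) and therefore rests on 2 libraries. *Vamp1*, for a synaptic vesicle protein, gave -0.13 (SE 0.0977, edgeR adjusted p = 0.454). These are gene-level counts, and they do not measure the inclusion of any exon.

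Markers of cell types were read beside these results. All 10 neuron markers were detected in every library, with a summed normalized count of 213376 to 248885 in the controls and 227748 to 241167 with *Fezf2 shRNA*, and 6 had log2 fold changes above 0 and 4 below. All 7 oligodendrocyte markers had log2 fold changes below 0, from -0.65 to -0.31, 0 called by edgeR, 5 with an unadjusted p under 0.05 and 2 (*Cnp* and *Mog*) called by DESeq2. Of all 9959 genes tested, 5641 had log2 fold changes below 0 and 782 were lower at that p. DESeq2 called 7.37% of all genes with its prior and 7.55% without it. With the replicate block edgeR called 2 of the oligodendrocyte markers, *Mag* (-0.57, adjusted p = 0.0473) and *Cldn11* (-0.67, adjusted p = 0.0395), where 0.894% of all genes were called. The sum of the 7 oligodendrocyte markers was 63046 to 114298 in the controls and 46845 to 76875 with *Fezf2 shRNA*, so the groups overlapped. Summed counts of astrocyte markers (47447 to 53166 in the controls and 48297 to 51502 with *Fezf2 shRNA*), of the 6 microglia markers (7186 to 9512 in the controls and 6865 to 9671 with *Fezf2 shRNA*), of both oligodendrocyte precursor markers (2024 to 2346 in the controls and 2043 to 2259.6 with *Fezf2 shRNA*) and of the 5 endothelial markers (1993 to 2685 in the controls and 1907 to 2213 with *Fezf2 shRNA*) overlapped as well, with no marker at 0 in any library. Of these markers, the 6 of astrocytes, both of the precursors, 5 of the 6 of microglia and 1 of the 5 of endothelial cells were tested, and 0 were called by edgeR or DESeq2 or had an unadjusted p under 0.05. The part of cell makeup in the members' values was not tested.

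The genes whose log2 CPM moved most like each member over the 8 libraries are given by Pearson's r, as a description, since all points share the same libraries. For the RBFOX genes these were *Sbf2* (0.983), *Ubn2* (0.979) and *Pde3b* (0.976) for *Rbfox1*, *Mef2a* (0.973), *Scd3* (0.972) and *Gm16083* (0.966) for *Rbfox2* and *Med15* (0.970), *Cntfr* (0.963) and *Ankrd28* (0.963) for *Rbfox3*. For *Celf2*, counted with *Gm26315*, they were *Rdh14* (0.960), *Cfap43* (0.919) and *Mtmr7* (0.909), and for *Celf4* *Cptp* (0.983), *Gm14372* (0.975) and *Nol9* (0.947). *Nova1* was closest to *Atp1b2* (0.962), *Pepd* (0.958) and *Rsbn1* (0.954), and *Nova2* to *Srcap* (0.968), *Scn8a* (0.968) and *Fam217b* (0.967). For *Elavl2* the list was *Ext1* (0.984), *Kif24* (0.982) and *Srbd1* (0.976), for *Elavl4* it was *Gm20449* (0.948), *Bbx* (0.931) and *Cyb5r4* (0.923), and for *Ptbp2* the first 2 were *Ndufs4* (0.989) and *Sntg1* (0.986). No member appeared among the 3 nearest genes of another member.

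The shRNA was compared with the transcripts of all 10 genes, to show how much of it they share. The sense sequence of 19 nt is printed with its longest match to a member in capitals, nt 1 to 10, found in *Celf2*.
Fezf2 shRNA: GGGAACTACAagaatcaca
The longest matches of the sense strand ran from 7 nt to 10 nt over 119 annotated transcripts of the members, and those of the antisense strand likewise from 7 nt to 10 nt.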

How the data were processed

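Total RNA from M1 of 8 mice was sequenced as paired ends, with TruSeq libraries. Per the labels and the methods, the authors aligned the reads to mm10 (GRCm38) with TopHat2 2.1.1, counted them per Ensembl transcript with multiCov of bedtools 2.26.0 and deposited these raw counts for all samples, without normalization. A second deposited table holds the authors' own DESeq2 1.10.1 comparison per gene (base means, fold changes and p-values) and was not used. Samples were grouped by their labels. A kit that marks strand is named in the methods, but whether strand was used in counting is not stated.

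Transcripts were mapped to genes and intervals with GENCODE M21, which held 91320 of the 94647 counted transcripts, and the other 3327 took 1.82% of counts. A gene was tested when 4 or more libraries had over 8 CPM of it, with edgeR 4.0.16 in R 4.3.3 (TMM, quasi-likelihood test, no covariate, Benjamini-Hochberg adjustment over all genes tested). Single genes were also compared by exact permutation tests over samples (scipy 1.17.1) on log2 normalized counts plus 0.5. Transcript intervals and parts of genes with a mean of at least 100 reads were fitted with the library sizes of the gene fit, and p-values were adjusted over all intervals, over all exonic or all intronic parts or, for the parts of *Celf2*, over the genes tested together with them. The length trend was a loess on log span (span parameter 0.3) of log ratios between each library and their mean. Sequences came from GENCODE and RefSeq and were aligned with 1 for a match, -1 for a mismatch and -2 for a gap. The fits were tested on simulated data. The alternatives were other normalizations, filters, thresholds and transcripts, DESeq2 1.42.0, an offset for length or GC content, a replicate block, each library left out, and, chosen after the data were seen, subtraction of nested small RNA genes, the earlier form of the quasi-likelihood fit and the division into parts.

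The members and lists were chosen with earlier results of these data known. The genes named are the members, *Fezf2*, the 3 genes with the smallest p of each other list, marker genes and, for each member, the 3 genes with the highest Pearson correlation of log2 CPM. *Gm26315*, *Rn7sk*, *1700109K24Rik*, *Gm26821*, *Cnp*, *Mog*, *Mag* and *Cldn11* were named after their values were seen. 1 listed gene is not analysed here. 2 genes that the rule names are not reported here. Depth was high enough that the spread between replicates, and not counting error, limited the precision of the members. Replicates are separate animals.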

Additional observations from a re-analysis of the deposited data

Results flagged for a closer look

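No result was set apart. In the 26 groups of 4 libraries formed by the 10 genes, *Fezf2*, *Gm26315* and *Celf2* without *Gm26315*, 0 held a library whose gap to its nearest neighbour was large for a group of 4 by Dixon's 95% limit, which chance passes in about 1 in 20 groups.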

How the results depend on the processing

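Of the members, 0 were called in the main comparison and under the other normalizations and filters, the widest transcript, the GC offset, the length offset, the replicate block, no minimum fold change and the earlier form of the quasi-likelihood fit. With either form of DESeq2, and at an adjusted p of at most 0.1, 3 were called, and 1 (*Celf2*) with nested small RNA genes subtracted. Leaving out 1 library gave 0 to 3, 3 of them when control replicate 2 was dropped and 1 when *Fezf2 shRNA* replicate 2 was, and 0 to 4 with that subtraction, 0 without control replicate 1 and 4 without control replicate 2. Over the 3 lists of other family members, other regulators and known targets together, 0 were called in the main comparison, 9 with DESeq2 with its prior, 10 without it (9 regulators and *Gphn*), 6 at an adjusted p of at most 0.1 and 0 to 3 with 1 library left out, 3 regulators without control replicate 2, and 2 regulators and *Gphn* without *Fezf2 shRNA* replicate 2. Over all genes, 218 calls became 111 with the filter of 1 CPM, 85 with no filter, 734 and 752 with DESeq2 with and without its prior, 563 at an adjusted p of at most 0.1, 2 with the length offset (also with subtraction), and 0 to 401 with 1 library left out, 0 without control replicate 1 and 401 without control replicate 2. With subtraction this range was 0 to 406. Transcript intervals of the members past the threshold numbered 23, 18 with the replicate block, and 1 (without control replicate 1) to 33 (without control replicate 2) with 1 library left out. *Fezf2* was called with DESeq2 (-0.25 with its prior, -0.28 without), and its values lay from -0.31 to -0.26 with 1 library left out, -0.24 with the GC offset and -0.18 with the length offset.

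The same replicate numbers in both groups gave correlations of deviations of 0.31, 0.093, -0.13 and 0.17. Unequal numbers were not compared, so whether the replicate numbers pair the samples was not tested. With the replicate block 89 genes and 0 members were called, and 2 genes when it was joined to the length offset. The length offset gave -0.15 for *Rbfox1*, -0.046 for *Rbfox2*, -0.0016 for *Rbfox3*, -0.10 for *Celf4*, -0.028 for *Nova1* and -0.0058 for *Elavl4*. Joined to the replicate block it gave -0.15 for *Rbfox1*, -0.046 for *Rbfox2*, -0.098 for *Celf4*, -0.023 for *Nova1* and -0.0082 for *Elavl4*. Joined to subtraction it gave -0.15 for *Rbfox1*, -0.048 for *Rbfox2*, -0.0050 for *Rbfox3*, 0.24 for *Celf2*, -0.094 for *Celf4*, -0.029 for *Nova1* and -0.0064 for *Elavl4*. Subtraction alone gave 0.60 for *Celf2*, and 0.56 to 0.65 with 1 library left out, against -0.10 to 0.10 without subtraction. The causes of these shifts were not tested. The SE of the members' log2 fold changes, 0.0529 to 0.122 over 4 and 4 animals, limits what could be told from 0.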

Other observations

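Inside *Celf4*, the 310-bp gene *Gm25845*, of type misc_RNA and on the same strand, had 177 and 196 reads in control replicates 1 and 2 and 4 to 16 in the other 6 libraries. It was named after its values were seen, and it held at most 1.35% of the reads of *Celf4*.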
